A study of Mus musculus with 16 samples.

Results

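The 39 genes described here encode the proteases, hydrolases, membrane proteins, proton pump subunits and regulators of the lysosome. They were chosen by name, as a functional list with no threshold on any measured value, from the 24532 genes of an mRNA expression table. A total of 37 were measured high enough to be tested. The 2 others, the cathepsin gene Ctsk and the proton pump gene Atp6v0d2, stayed under the filter on low values in every group and are described by their levels alone.

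The table holds 16 RNA-seq libraries of cells sorted from the spleens of C57BL/6 mice at 12 weeks of age, with no gene deletion or transgene named for them. Control mice gave XCR1+ 33D1- classical dendritic cells of type 1 (control cDC1s) and XCR1- 33D1+ cells of type 2 (control cDC2s) from the CD11c-high, MHC class II-positive gate. Mice that had 3 once-daily injections of GM-CSF, the granulocyte and macrophage growth factor, gave the same subsets (GM-CSF cDC1s and GM-CSF cDC2s), the XCR1- 33D1- cells of that gate (DC-Xs), and 3 CD11b+ CD115-high populations: Ly6C+ classical monocytes (P-I), Ly6C- MHC class II-positive CD301b- cells (P-III) and Ly6C- MHC class II-positive CD301b+ cells (P-IV, the GM-CSF-induced DCs of the study). A further population, P-II, was not analysed here, and by the study's account DC-Xs are largely P-IV cells, so these groups overlap. Each of the 8 groups had 2 libraries from separate mice. The p-values rest on the spread between these few replicates, shared over all 8 groups and not taken from the compared groups alone.

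The lysosome is the acidic compartment in which a cell breaks down material that it has taken up or set aside for disposal. The vacuolar ATPase pumps protons into it, soluble acid hydrolases cleave proteins, sugars and lipids, and heavily glycosylated membrane proteins line its wall. In DCs the same proteases trim antigens and the invariant chain that blocks MHC class II, while cystatins hold the proteases back, so that the balance of degradation and antigen preservation is a known trait by which DC subsets differ from macrophages. The transcription factor TFEB activates many lysosomal genes through short DNA sites built on the letters CACGTG.

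The promoters of the genes were read first, since TFEB is itself one of the 39. RefSeq promoters of 300 bases (250 before and 50 after the start, build GRCm38.p6) were found for 31 of the 39 genes, 36 promoters in all, as some genes have more than one start. CACGTG, which reads the same on both strands, was in 12 of these 36 promoters (33.3%). It was in 8.04% of the promoters of all genes in the table and in 9.99% of those of the genes tested. The longer TCACGTGA, which contains it, was in 7 (19.4%, against 1.27% and 1.9%). The same 8 letters with a further G before and C after them were in 0 of 36 (against 0.455% and 0.775%). A match is a description of letters and does not show that a factor binds there. The 250 bases before the start are printed for 3 genes with matches whose mRNA was higher in P-IV or DC-Xs than in cDC1s (the aspartic protease Ctsd, the membrane protein Lamp1 and the channel Mcoln1) and for 2 genes without a match that were far higher in cDC1s (the protease inhibitor Cst3 and the glycosidase Gusb). Each reads 5′ to 3′ on the strand of its gene, with CACGTG in capitals.
Ctsd, chr7:142387828-142388077, minus strand: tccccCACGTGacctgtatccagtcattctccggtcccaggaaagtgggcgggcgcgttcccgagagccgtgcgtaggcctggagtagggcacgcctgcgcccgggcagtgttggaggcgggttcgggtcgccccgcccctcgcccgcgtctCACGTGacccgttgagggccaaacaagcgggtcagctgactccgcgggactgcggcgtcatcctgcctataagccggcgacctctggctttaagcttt
Lamp1, chr8:13158911-13159160, plus strand: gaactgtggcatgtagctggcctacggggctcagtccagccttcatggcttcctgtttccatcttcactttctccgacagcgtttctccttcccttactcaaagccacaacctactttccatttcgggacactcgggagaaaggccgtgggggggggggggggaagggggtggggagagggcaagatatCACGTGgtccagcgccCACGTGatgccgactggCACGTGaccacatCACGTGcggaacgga
Mcoln1, chr8:3500269-3500518, plus strand: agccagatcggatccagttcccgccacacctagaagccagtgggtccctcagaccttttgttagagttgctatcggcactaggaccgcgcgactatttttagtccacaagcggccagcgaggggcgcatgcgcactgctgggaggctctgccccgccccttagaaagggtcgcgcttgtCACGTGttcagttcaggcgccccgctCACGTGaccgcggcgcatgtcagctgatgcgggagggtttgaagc
Cst3, chr2:148875513-148875762, minus strand: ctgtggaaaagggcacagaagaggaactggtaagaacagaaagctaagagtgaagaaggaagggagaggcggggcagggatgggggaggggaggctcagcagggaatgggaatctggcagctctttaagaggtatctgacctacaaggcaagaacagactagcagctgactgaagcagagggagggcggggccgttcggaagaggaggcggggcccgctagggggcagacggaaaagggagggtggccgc
Gusb, chr5:130003050-130003299, minus strand: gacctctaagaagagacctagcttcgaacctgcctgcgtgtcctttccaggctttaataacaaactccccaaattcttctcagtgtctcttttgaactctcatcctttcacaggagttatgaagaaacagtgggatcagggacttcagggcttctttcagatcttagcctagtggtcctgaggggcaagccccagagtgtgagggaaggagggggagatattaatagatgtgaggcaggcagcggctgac
Counted back from the start, the matches of Lamp1 begin at -61, -45, -28 and -15, those of Mcoln1 at -71 and -45 and those of Ctsd at -245 and -98. TCACGTGA was in promoters of Ctsd, Mcoln1, Ctsa, Ifi30, Gla, Atp6v1a and Atp6v0d1. Ctsa, Ctsd, Lgmn, Ifi30 and Lamp1, with CACGTG in a promoter, were called higher in P-IV than in GM-CSF cDC1s. Ppt1, Cst3 and Gusb, called lower there, held none. Ctsd and Ctsl, which hold CACGTG, were called lower in P-IV than in P-I. A match did not set apart the genes called higher in P-IV than in GM-CSF cDC1s. Ctsc, Ctss, Tpp1, Hexa, Lamp2 and Cd68, all called higher in P-IV than in GM-CSF cDC1s, held no CACGTG in these windows. Gla, Atp6v1a, Atp6v0d1 and Mcoln1, which hold TCACGTGA, were not called there, and neither were Ctsl, Gaa and Glb1, which hold CACGTG. Tfeb itself, with 3 promoters, held no CACGTG in these windows.

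The values are FPKM, fragment numbers scaled for transcript length and for the mapped fragments of the library. They summed to between 444141 and 627472 in a library, with 9388 to 10242 genes at 1 FPKM or more. Depth was estimated where low values clustered at multiples of a single fragment. In 10 libraries 30.4% to 44.0% of them lay within 0.05 of a whole fragment, and 24390000 to 47000000 fragments were estimated. Each share is the highest over a scan of depths. Without steps 10% would lie there at a depth fixed beforehand, and the best of a scan can give more, so 10% is no baseline for these shares. In the other 6, all of cDCs, the share was 23.5% to 26.9% and the depth was taken as unknown. Replicates correlated at 0.947 to 0.996 across genes, and their SD on the log2 scale was 0.362 to 0.517 in the cDC and DC-X groups and 0.135 to 0.218 in the CD115-high cells. The summed sort markers were highest in the groups they mark, though not all were confined to them. The sum of 5 cDC2 markers was 497 to 635 FPKM in cDC2s, 201 to 334 in DC-Xs and the CD115-high cells and 5.46 to 17.2 in cDC1s. That of 3 genes of the P-IV gate was 1253 to 1281 in P-IV, 911 to 916 in DC-Xs, 542 to 670 in P-I and P-III and 1.35 to 125 in cDCs. The summed FPKM of 5 cDC1 markers was 1740.5 to 2259.7 in cDC1 libraries and 57.7 to 239 in all others, and that of 4 monocyte markers was 567 to 1489 in DC-Xs and the CD115-high cells and 20.7 to 81.7 in cDCs. Since these are bulk samples, fewer cells of a type and less RNA per cell cannot be told apart.

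Levels of the 39 genes were surveyed across the 8 groups. Their summed FPKM made up 4.41% and 4.55% of all FPKM in the control cDC1 libraries, 3.72% and 4.44% in GM-CSF cDC1s, 3.27% and 3.86% in DC-Xs, 2.43% to 2.73% in the CD115-high cells and 1.35% to 1.51% in cDC2s. Cst3 alone gave 65.2% and 77.2% of the members' FPKM in control cDC1s and 49.9% and 55.4% in GM-CSF cDC1s. Ctsk, the collagen-degrading cathepsin of osteoclasts, reached at most 0.0843 FPKM (P-III replicate 1), and Atp6v0d2, the proton pump subunit known from osteoclasts and macrophages, at most 0.142 (P-IV replicate 2). Atp6v0d1, the widely expressed form of that subunit, was at 28.6 to 82.0 FPKM in all 16 libraries and was called in no comparison. The heatmap of all libraries shows these levels by role.

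**Figure D1:**
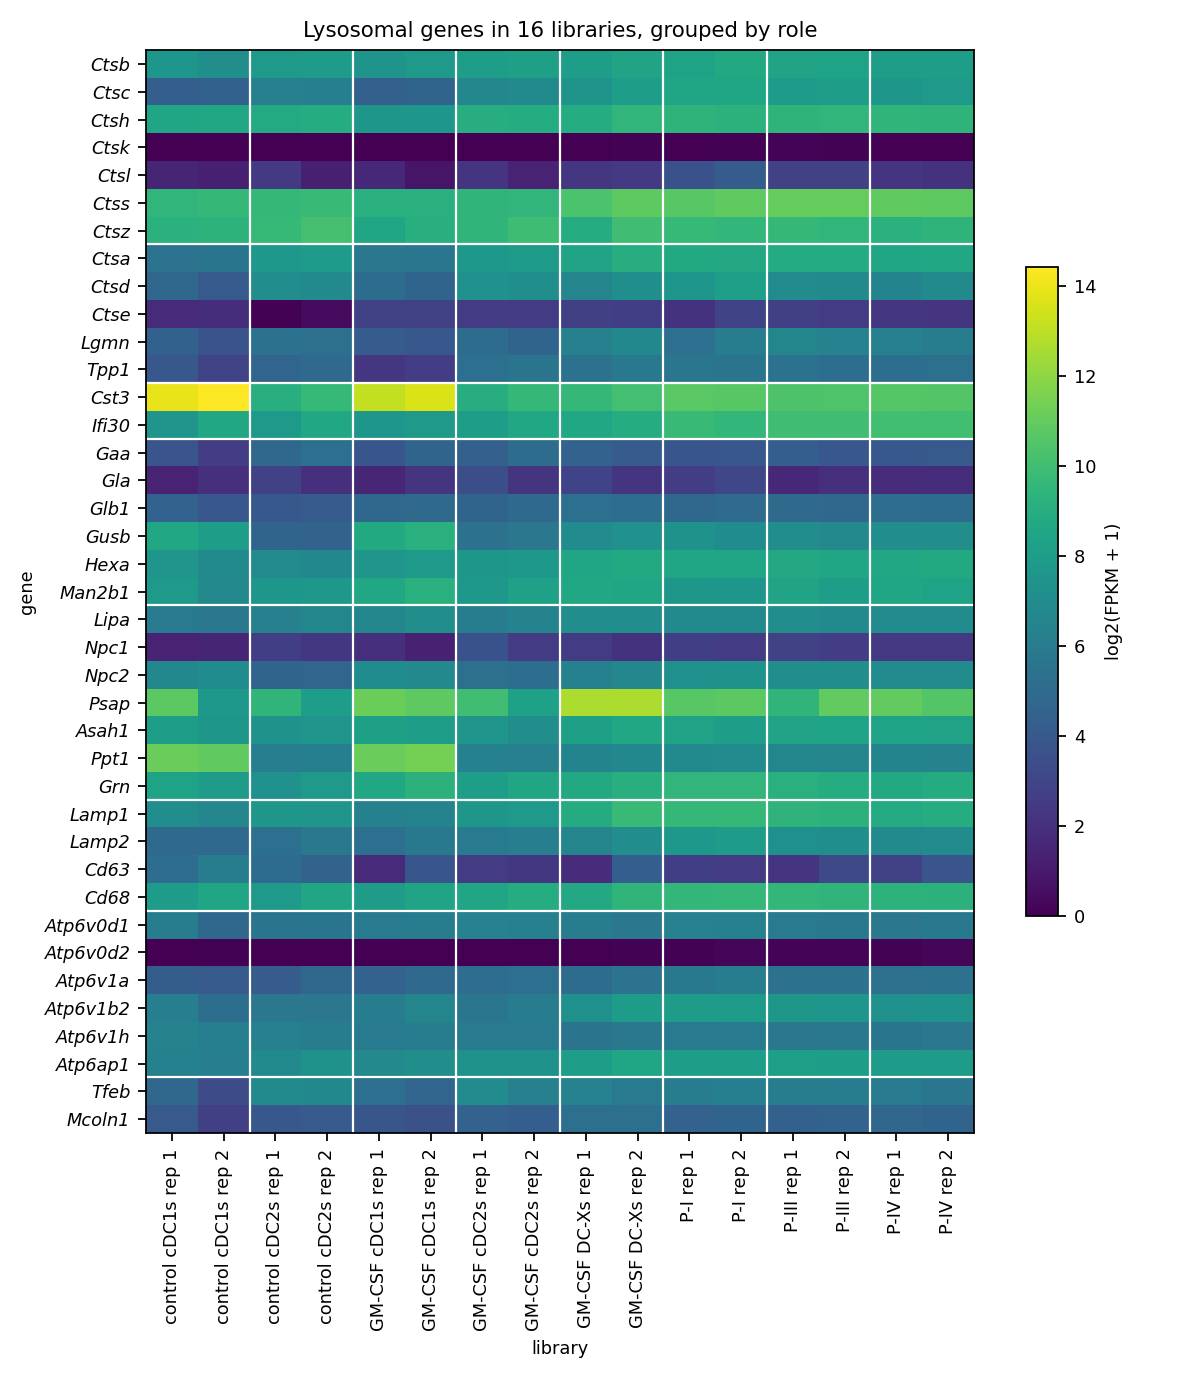
Heatmap of the 39 lysosomal genes (rows, white lines between roles: papain-type cysteine proteases, other proteases, inhibitor and thiol reductase, glycosidases, lipid hydrolases and lipid transfer, membrane proteins, proton pump, regulator and channel) in 16 libraries (columns), coloured by log2(FPKM + 1). Cst3 and Ppt1 are brightest in the 4 cDC1 libraries, Psap in the 2 DC-X libraries, and Ctsk and Atp6v0d2 stay near 0.

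Cystatin C, encoded by Cst3 (chromosome 2, 148871722 to 148875512, GRCm38), is a secreted inhibitor of papain-type cathepsins. Its mRNA was at 16053 and 22050.3 FPKM in the 2 control cDC1 libraries, 8935 and 12339 in GM-CSF cDC1s, 1711 and 1624 in P-I, 1595 and 1525 in P-IV, 1341 and 1392 in P-III, 790.3 and 1105 in DC-Xs, 523 and 816 in control cDC2s and 515 and 782 in GM-CSF cDC2s. All 4 cDC1 libraries were above all 12 others, and in each of them Cst3 ranked as number 4 among all genes by FPKM. At the low end DC-Xs overlapped control cDC2s and lay just above GM-CSF cDC2s. The 7 papain-type cathepsin genes together reached 1335 to 1977 FPKM in cDC1s, 2268 to 2786 in cDC2s and 2707 to 4240.3 in DC-Xs and the CD115-high cells. With the genes set beside each other on this length-scaled measure, Cst3 stood at 6.69 to 11.2 times the summed cathepsins in cDC1 libraries. It stood at 0.222 to 0.449 times in the 12 others, with no overlap. Fold changes still followed transcript length in control cDC1s against control cDC2s (Spearman rho -0.416) and with GM-CSF in cDC1s (0.458). Between the treated subsets the rho was -0.086. The part of this trend in the ratios was not tested. All values are mRNA levels, and protein was not measured here.

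**Figure D2:**
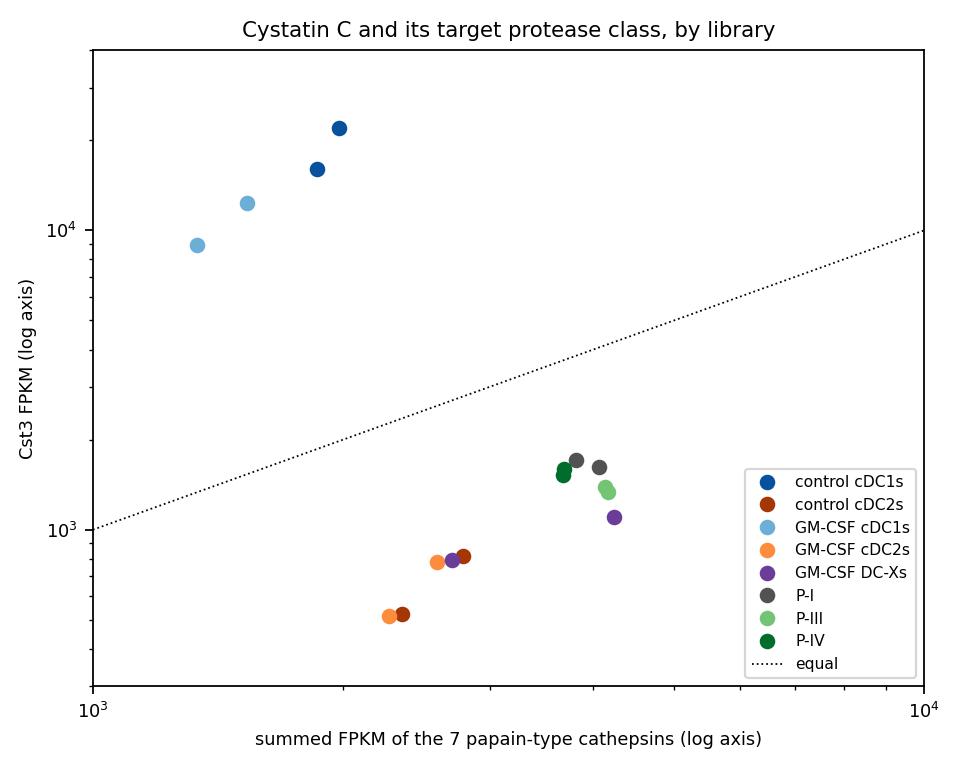
Cst3 FPKM (vertical, log axis) against the summed FPKM of the 7 papain-type cathepsin genes (horizontal, log axis), 1 point per library, coloured by group, with a dotted line of equal levels. The 4 cDC1 libraries lie above the line, at 6.69 to 11.2 times, and the 12 others below it.

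The subsets of control mice were compared to see how the lysosomal genes differ between cDC1s and cDC2s before treatment. With limma, log2(FPKM + 1) was tested across all genes. A gene was called at an adjusted p under 0.05 and a log2 fold change of at least 1 in size, and fold changes on this scale understate the change of low genes. Of the 37 members, 5 were higher and 8 lower in cDC1s, with a median of -0.38. Of all 11335 genes tested, 31.8% were called (11.2% higher, 20.6% lower) and the median was -0.26. The count of 13 of 37 stands near that background, so the members are described singly.

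Among the genes higher in control cDC1s, Ppt1, which removes palmitate from proteins, was at 2256 and 1939 FPKM against 70.3 and 73.8 in cDC2s (log2 fold change 4.84, SE 0.16, adjusted p = 1.54e-09). Cst3 had a similar difference (4.85, adjusted p = 1.23e-07). Gusb, beta-glucuronidase, was at 396 and 262 against 23.8 and 23.4 FPKM (log2 fold change 3.71, SE 0.23, adjusted p = 1.76e-07). For these 3 genes the lowest cDC1 library was over 10 times the highest cDC2 library. Npc2, which carries cholesterol out of the lysosome, was at 107 and 131 against 23.9 and 25.0 (2.23, adjusted p = 1.11e-06). Ctse, an aspartic protease of the endosome, was low in both, at 2.24 and 2.64 against 0.0513 and 0.362 FPKM (1.52, adjusted p = 0.000646), and library weights ended this call (1.52, adjusted p = 0.0681).

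Of the 8 genes lower in control cDC1s, 5 encode proteases. Ctsd, the main aspartic protease of lysosomes, was at 28.0 and 15.9 FPKM against 132 and 116 in cDC2s (log2 fold change -2.50, SE 0.29, adjusted p = 3.48e-05). Ctsa, a carboxypeptidase that also stabilises glycosidases, was at 43.3 and 47.7 against 208 and 251 (-2.31, adjusted p = 1.97e-06). Tfeb was at 27.5 and 9.09 against 117 and 108 (log2 fold change -2.74, SE 0.39, adjusted p = 0.000154), with no overlap although its control cDC1 libraries differed about 3-fold. Ctsc, the dipeptidyl peptidase that activates granule proteases, was lower at -1.87 and Gaa, which degrades glycogen, at -1.85. Tpp1, a tripeptidyl peptidase, was lower at -1.38, Lgmn, an asparagine-specific protease, at -1.28 and the cholesterol transporter Npc1 at -1.07. Ctss, the protease of the late steps of invariant chain removal, was at 709 and 792 FPKM in cDC1s and 781 and 829 in cDC2s and was not called (-0.10, adjusted p = 0.687). Without control cDC1s replicate 2 the calls of Tpp1 (-0.90, adjusted p = 0.00994) and Lgmn (-0.89, adjusted p = 0.0511) ended. Tpp1 was also lost with the length correction (-0.77, adjusted p = 0.0482) and Lgmn with library weights (-1.28, adjusted p = 0.134). The call of Npc1 was lost under 8 of 13 alternatives, at an adjusted p of up to 0.352, among them without control cDC1s replicate 1 (-1.04, adjusted p = 0.0624), control cDC1s replicate 2 (-1.10, adjusted p = 0.0603) or control cDC2s replicate 1 (-0.89, adjusted p = 0.117). Fold changes in this comparison fell with transcript length (Spearman rho -0.416 across 11204 genes, which are not replicates), and with quantile normalization the all-gene median was 0.02 and 51.5% of all calls were higher, in place of 35.1%.

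In treated mice the same subsets were compared again, with other libraries. Of the 37 members 4 were higher and 8 lower in GM-CSF cDC1s (all genes: 14.8% called, 6.01% higher and 8.80% lower), and the median was -0.47 against -0.10 for all genes. Ppt1 was at 2268 and 2722 FPKM in cDC1s against 80.7 and 75.7 in cDC2s (log2 fold change 4.97, SE 0.16, adjusted p = 1e-09), Cst3 differed by 4.05 and Npc2 by 1.62. Gusb was at 431 and 570.2 against 42.3 and 51.8 FPKM (log2 fold change 3.38, SE 0.23, adjusted p = 5.18e-07). These 4 genes were the ones called higher here, and all 4 were also called higher in control cDC1s. Npc2 was the smallest of these differences, at 128 and 110.4 against 39.7 and 36.2 FPKM.

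On the lower side, Tpp1 was at 3.80 and 5.14 FPKM in GM-CSF cDC1s against 38.2 and 45.2 in cDC2s (log2 fold change -2.97, SE 0.28, adjusted p = 7.01e-06). Ctsd was at 33.4 and 24.0 against 153 and 145 (-2.35, adjusted p = 8.83e-05). Ctsc was at 20.1 and 24.2 against 103 and 115 (-2.25, adjusted p = 5.33e-06). For each of these proteases both cDC1 libraries were below both cDC2 libraries by a wide margin. Ctsa at -2.08, Tfeb at -1.63, Npc1 at -1.44, the aminopeptidase Ctsh at -1.34 and the membrane protein Lamp1 at -1.32 were lower too. The call of Tfeb ended without GM-CSF cDC1s replicate 2 (-1.33, adjusted p = 0.0751) or GM-CSF cDC2s replicate 1 (-1.30, adjusted p = 0.0868), and that of Npc1 without the same libraries (-1.12, adjusted p = 0.0745, and -0.87, adjusted p = 0.0855).

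Markers of red pulp macrophages, cells rich in lysosomes, were read beside these differences. Of 10 listed genes, 7 were lower and 0 higher in control cDC1s than in control cDC2s, with a median of -1.71. Of all genes tested, 20.6% were lower and 11.2% higher there, with a median of -0.26. In treated mice 1 marker was lower and 0 higher (median -0.98). Of all genes 8.80% were lower and 6.01% higher in that comparison (median -0.10), so the count in treated mice was near the background. Spic, a transcription factor of these macrophages, was at 19.2 and 11.2 FPKM in control cDC1s against 11.5 and 9.04 in control cDC2s, and Hmox1, heme oxygenase, at 79.8 and 8.45 against 67.4 and 20.0, and the groups overlapped for both genes. The 10 genes summed to 278 to 467 FPKM in control cDC2s and 398 to 402 in GM-CSF cDC2s, against 51.7 to 163 and 54.4 to 117 in the cDC1 groups. All 10 reached an FPKM of 1 in at least 1 library of control cDC2s, GM-CSF cDC2s and GM-CSF cDC1s, and 9 did in control cDC1s, where Cd163 was at 0 and 0.143. Adgre1, which encodes F4/80 and is not confined to macrophages, was the largest part of the sum in all 4 cDC2 libraries, at 117 and 132 and 232 and 309.6 FPKM against 3.95 and 1.22 and 6.54 and 7.08 in cDC1s, while the more restricted Cd5l was at 8.77 and 4.98 and 5.78 and 3.38 against 1.30 and 0.762 and 2.40 and 0.615. The part of such cells in the lysosomal differences was not tested.

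Genes of the same pathway from lists outside the 39, of which 65 of 72 could be tested, were examined as well. In control mice 9 were higher and 18 lower in cDC1s (13.8% and 27.7%, against 11.2% and 20.6% of all genes), and in treated mice 9 were higher and 7 lower (13.8% and 10.8%, against 6.01% and 8.80%). Slc11a1, the metal transporter of phagosomes also called NRAMP1, was at 89.9 and 39.9 FPKM in control cDC1s against 4.41 and 5.15 in control cDC2s (log2 fold change 3.40, SE 0.38, adjusted p = 2.15e-05) and at 92.9 and 141 against 4.09 and 2.06 in treated mice (4.87, adjusted p = 1.41e-06). It was the gene with the largest difference of these lists in both comparisons. The fucosidase Fuca1 was higher in cDC1s at 2.95 in control and 2.46 in treated mice, and the thioesterase Ppt2, a relative of Ppt1, at 2.82 in treated mice. Acp5, tartrate-resistant acid phosphatase, was lower in control cDC1s, at 29.3 and 24.7 against 157 and 216 FPKM (-2.73, adjusted p = 3.38e-06).

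**Figure D3:**
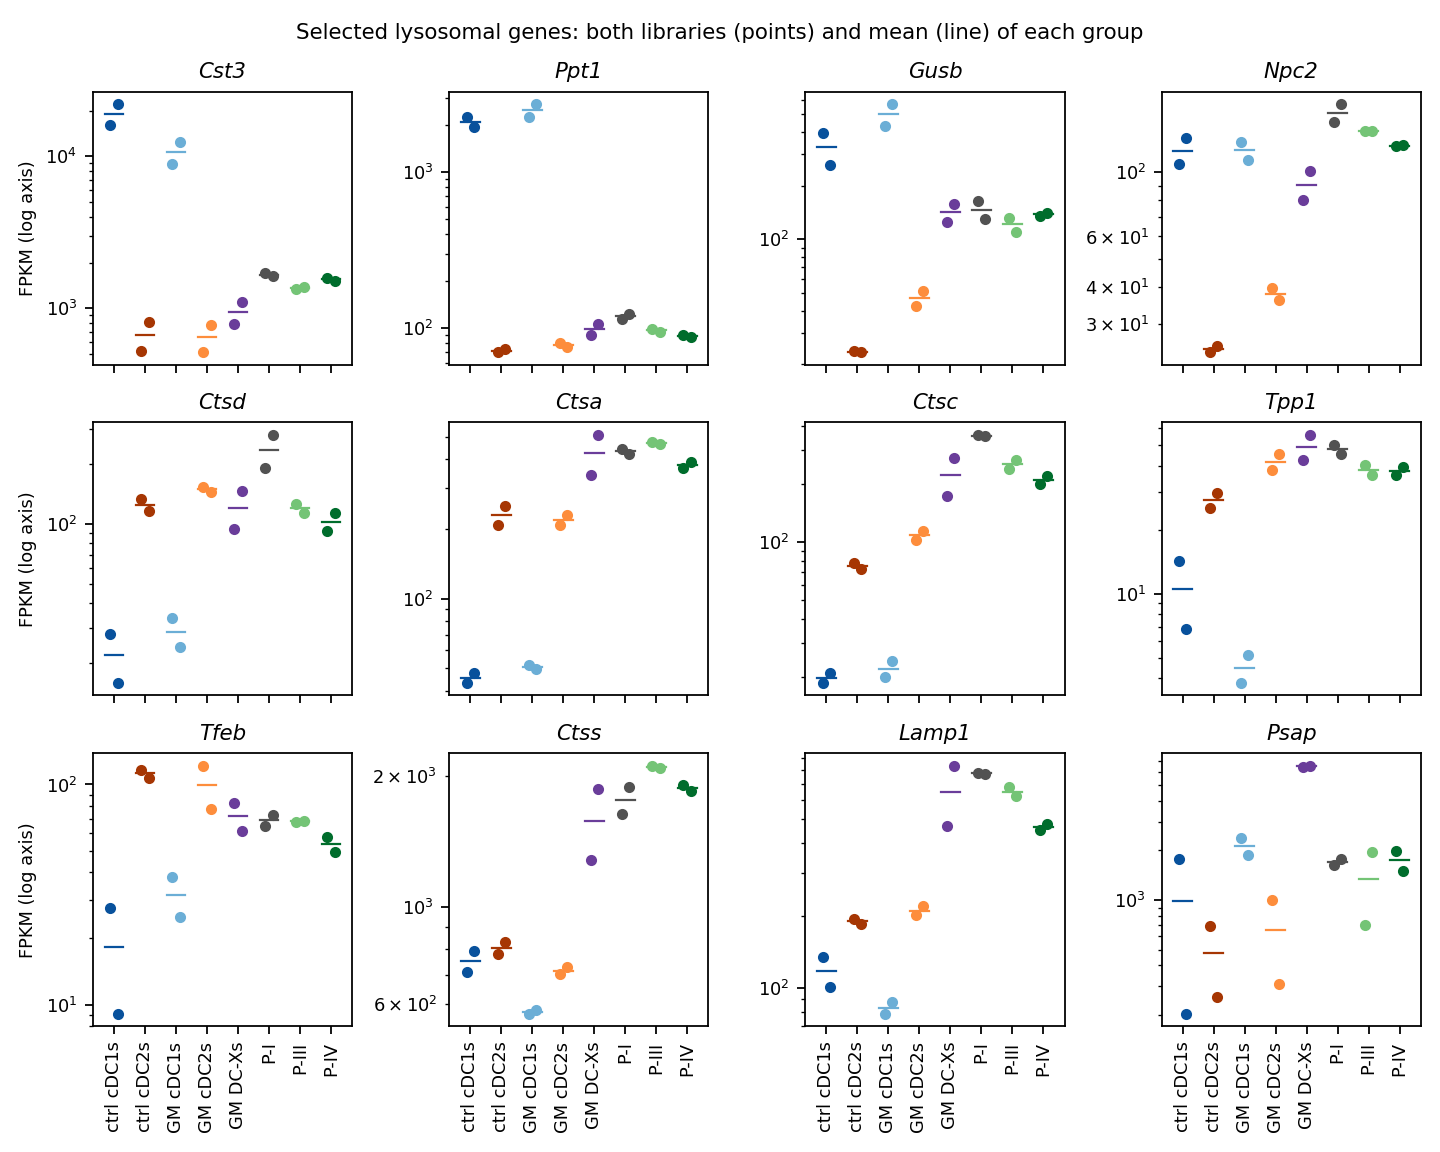
FPKM (log axis) of 12 lysosomal genes in the 8 groups, with 1 point per library and a line at the mean of each group. Cst3, Ppt1 and Gusb are higher in cDC1s than in every other group, Ctsd, Ctsa, Ctsc and Tpp1 are lower in cDC1s than in every other group, and the replicates of Psap lie apart in control cDC1s, both cDC2 groups and P-III.

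P-IV cells were set against the cDCs of the same treatment to describe the lysosomal genes of GM-CSF-induced DCs. The sample numbers in the labels of P-I, P-III and P-IV all lie above those of the cDC and DC-X libraries. What these numbers stand for is not given. A difference in handling that goes with them could not be told apart from population when P-I, P-III or P-IV is compared with cDCs or DC-Xs. Against GM-CSF cDC1s, 12 of 37 members were higher and 3 lower in P-IV, where 15.4% of all genes were called (8.95% higher, 6.49% lower), and the median of the members was 0.62 against 0 for all genes. Against GM-CSF cDC2s, 10 were higher and 0 lower in P-IV (16.4% of all genes called, 7.98% higher and 8.45% lower), with a median of 0.48 against -0.09. At an unadjusted p under 0.05, 2 members were lower in P-IV than in GM-CSF cDC2s. The plot of fold changes for P-IV shows both comparisons, which share the P-IV libraries.

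**Figure D4:**
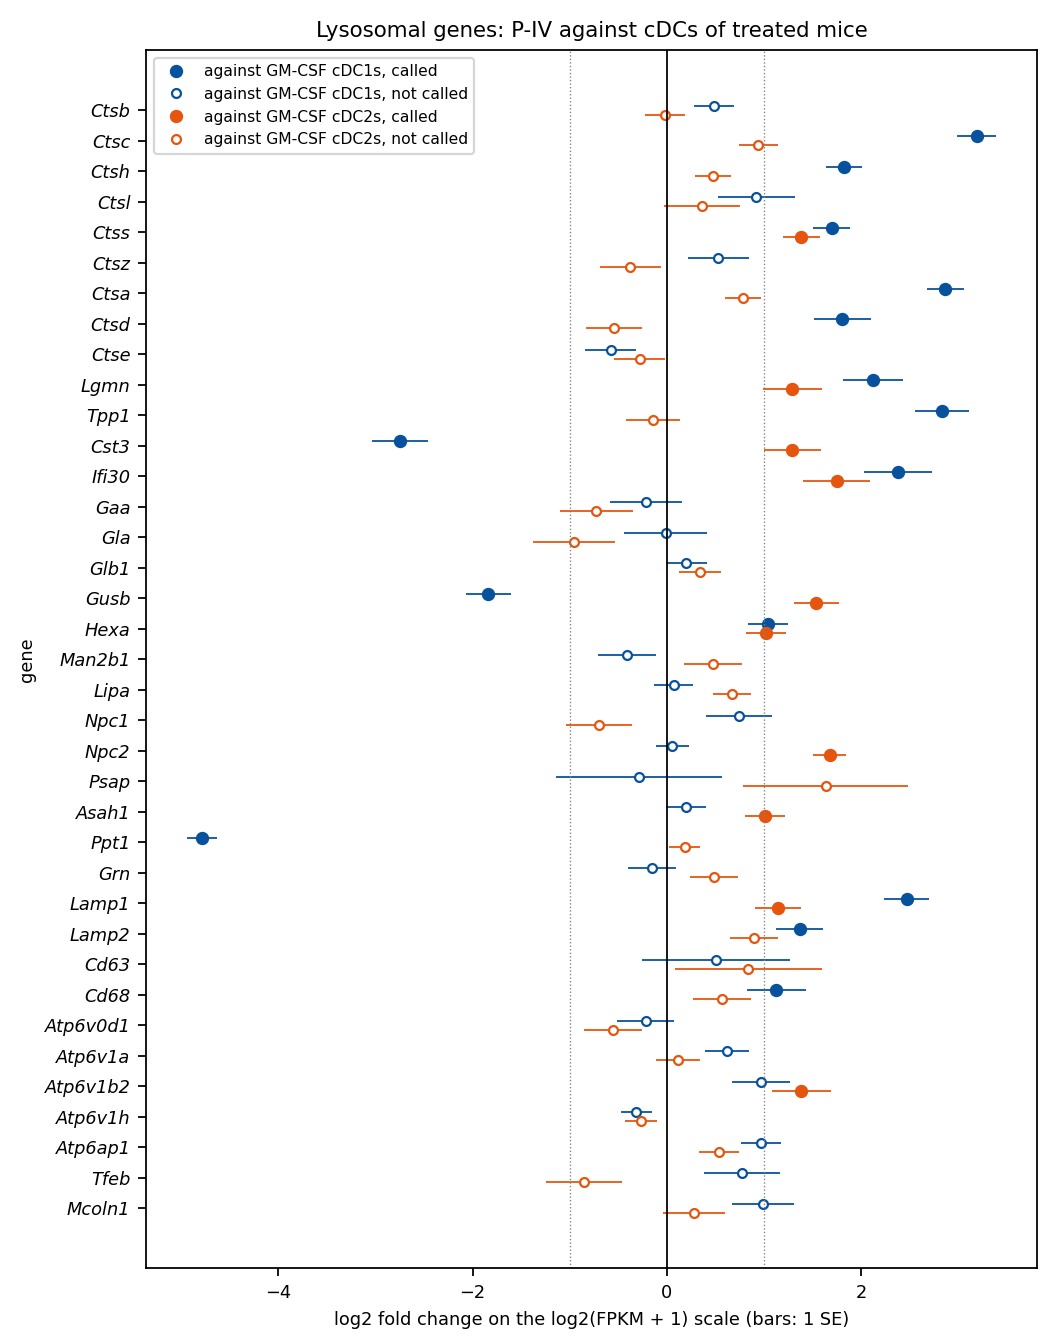
Log2 fold change of the 37 tested lysosomal genes (rows, by role) in P-IV against GM-CSF cDC1s (blue) and GM-CSF cDC2s (orange) on the log2(FPKM + 1) scale. Filled points were called, open points were not, bars are 1 SE, and dotted lines mark 1 and -1. Ppt1 at -4.79, Cst3 at -2.75 and Gusb at -1.84 are the 3 members lower than in cDC1s, and no filled orange point lies left of 0.

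Of the cysteine proteases, Ctsc was at 201 and 219 FPKM in P-IV against 20.1 and 24.2 in GM-CSF cDC1s (log2 fold change 3.19, SE 0.20, adjusted p = 2.13e-07). Against GM-CSF cDC2s, at 103 and 115, it stayed just under the 2-fold rule (0.94, adjusted p = 0.00462). Ctss was at 1902 and 1841 FPKM in P-IV against 569.6 and 581 in cDC1s (1.70, adjusted p = 3.19e-05) and 703 and 727 in cDC2s (1.39, adjusted p = 0.000201). It was thus called higher than in both subsets. Ctsh was higher than in cDC1s (1.82) and Ctsb, Ctsl and Ctsz were called in neither comparison, with Ctsb at 0.48 and -0.02.

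Most other proteases were called against cDC1s alone of the cDCs. Ctsa was at 368 and 388 FPKM in P-IV against 51.9 and 49.8 in GM-CSF cDC1s (log2 fold change 2.87, SE 0.19, adjusted p = 3.1e-07), and at 209 and 229.6 in GM-CSF cDC2s (0.78, adjusted p = 0.00939, under the 2-fold rule). Tpp1 was at 36.0 and 39.4 against 3.80 and 5.14 in cDC1s (2.83, adjusted p = 9.38e-06) and not called against cDC2s (-0.14). Ctsd was higher than in cDC1s (1.81) and not called against cDC2s (-0.54). Legumain was the protease outside the papain type that was called in both, with Lgmn at 77.8 and 65.2 FPKM in P-IV, 17.5 and 13.8 in cDC1s (2.12) and 33.6 and 24.0 in cDC2s (1.30). Ctse was at 3.85 and 3.56 FPKM in P-IV and called in neither.

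The inhibitor and the thiol reductase went different ways. Cst3 was lower in P-IV than in GM-CSF cDC1s (log2 fold change -2.75, SE 0.29, adjusted p = 1.73e-05) and higher than in GM-CSF cDC2s (log2 fold change 1.30, SE 0.29, adjusted p = 0.0059). Ifi30, which reduces disulfide bonds of antigens for MHC class II loading, was at 1082 and 1064 FPKM in P-IV, 190.4 and 220.3 in cDC1s and 261 and 389 in cDC2s, and was called higher against both (2.38, adjusted p = 0.000271, and 1.75, adjusted p = 0.00287). Both P-IV libraries of Ifi30 were above every cDC library.

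Among glycosidases and lipid genes, Gusb was at 135 and 141 FPKM in P-IV, between the 431 and 570.2 of GM-CSF cDC1s (log2 fold change -1.84, SE 0.23, adjusted p = 8.03e-05) and the 42.3 and 51.8 of GM-CSF cDC2s (log2 fold change 1.54, SE 0.23, adjusted p = 0.000379). Ppt1 was at 90.3 and 87.7 in P-IV, far under cDC1s (log2 fold change -4.79, SE 0.16, adjusted p = 2.93e-09) and close to the 80.7 and 75.7 of cDC2s (0.19, adjusted p = 0.457). Npc2 was at 123 and 124 FPKM, higher than in cDC2s (log2 fold change 1.68, SE 0.17, adjusted p = 1.77e-05) and not called against cDC1s (0.06). P-IV thus stood between the cDCs for Gusb, with cDC2s for Ppt1 and nearer to cDC1s for Npc2. Hexa, a subunit of beta-hexosaminidase, was higher than in cDC1s (1.05) and cDC2s (1.02), and the acid ceramidase gene Asah1 than in cDC2s (1.01).

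Of the membrane and pump genes, Lamp1 was at 451 and 479.8 FPKM in P-IV, against 78.5 and 87.8 in GM-CSF cDC1s (log2 fold change 2.47, SE 0.23, adjusted p = 7.05e-06) and 201 and 219 in GM-CSF cDC2s (1.15, adjusted p = 0.0034). Lamp2 (1.37) and the macrophage sialomucin Cd68 (1.13) were higher than in cDC1s. Atp6v1b2, a subunit of the part of the pump that hydrolyses ATP, was at 150.0 and 163 FPKM in P-IV against 50.5 and 69.6 in cDC2s (1.39, adjusted p = 0.00512). No other pump gene was called, and neither was Tfeb, at 57.8 and 49.3 FPKM in P-IV, between the 37.8 and 24.9 of cDC1s and the 122 and 77.1 of cDC2s. Of the weaker calls, Cd68 ended without GM-CSF cDC1s replicate 1 (0.90, adjusted p = 0.133), P-IV replicate 1 (1.12, adjusted p = 0.093) or P-IV replicate 2 (1.14, adjusted p = 0.0839). Hexa ended against cDC1s without GM-CSF cDC1s replicate 1 (0.90, adjusted p = 0.0319) and against cDC2s without GM-CSF cDC2s replicate 1 (0.99, adjusted p = 0.0219) or P-IV replicate 2 (0.98, adjusted p = 0.0338). Asah1 ended against cDC2s without GM-CSF cDC2s replicate 2 (0.81, adjusted p = 0.0402) or P-IV replicate 1 (0.99, adjusted p = 0.0348), and so did Lgmn (1.06, adjusted p = 0.0745, and 1.17, adjusted p = 0.0789). Without GM-CSF cDC2s replicate 1, Cst3 (1.00, adjusted p = 0.0618) and Atp6v1b2 (1.16, adjusted p = 0.051) were no longer called against cDC2s. Quantile normalization brought Cd68 and Hexa against cDC1s to 0.99 and 0.82, and Asah1, Hexa and Lamp1 against cDC2s to 0.81, 0.78 and 0.90, all under the 2-fold rule.

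Of the pathway genes, 12 of 65 were higher and 7 lower in P-IV than in GM-CSF cDC1s (18.5% and 10.8%, against 8.95% and 6.49% of all genes), and 13 were higher and 2 lower than in GM-CSF cDC2s (20.0% and 3.08%, against 7.98% and 8.45%). Pla2g15, the lysosomal phospholipase A2, was at 30.8 and 31.3 FPKM in P-IV against 3.48 and 2.93 in cDC1s (log2 fold change 2.93, SE 0.32, adjusted p = 2.25e-05) and 6.38 and 4.20 in cDC2s (2.37, adjusted p = 0.000158). Ctsf, a papain-type protease outside the 39, was at 5.25 and 5.93 FPKM against 0.0590 and 0.327 in cDC1s (2.47, adjusted p = 1.74e-06). Slc11a1 was at 17.1 and 17.3, lower than in cDC1s (-2.66) and higher than in cDC2s (2.21), and Cstb, an intracellular cathepsin inhibitor, was higher than in cDC2s (1.97). The summed red pulp macrophage markers were at 246 FPKM in both P-IV libraries, above the 54.4 to 117 of GM-CSF cDC1s and under the 398 to 402 of GM-CSF cDC2s. Of the 4 B cell markers tested, 3 were higher in P-IV than in GM-CSF cDC1s and 2 higher than in GM-CSF cDC2s, and the 5 listed summed to 33.4 to 38.8 FPKM in P-IV, 13.8 to 14.6 in GM-CSF cDC1s and 21.7 to 30.6 in GM-CSF cDC2s. The part of either cell type in the lysosomal values was not tested.

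DC-Xs were compared with the same cDCs, as the double-negative cells of the DC gate. Against GM-CSF cDC1s, 14 of 37 members were higher and 3 lower (16.4% of all genes called, 8.95% higher and 7.49% lower), with a median of 0.69 against -0.06. Against GM-CSF cDC2s, 8 were higher and 0 lower (14.7% of all genes called, 6.78% higher and 7.96% lower), with a median of 0.58 against -0.15, and at an unadjusted p under 0.05 there was 1 lower. The count of 8 was 13 with median-of-ratios scaling, which moved the higher share of all calls from 46.0% to 56.8%, and 13 with a correction for transcript length. It fell to 5 without DC-Xs replicate 2 and rose to 12 at most when another library was left out. These comparisons share the cDC libraries with those of P-IV, so the values are set beside each other and not counted as a second test.

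Several proteases led in DC-Xs. Ctsc was at 173 and 272 FPKM (log2 fold change 3.24, SE 0.20, adjusted p = 1.82e-07 against GM-CSF cDC1s), Tpp1 at 42.4 and 55.8 (3.19, adjusted p = 3.44e-06) and Ctsa at 341 and 509 (3.01, adjusted p = 1.93e-07). Ctsd was higher than in cDC1s at 2.00 and Ctsh at 1.61. In all 5 the second DC-X library had the higher value, and both were above both cDC1 libraries. Lgmn, at 77.8 and 107 FPKM, was called against cDC1s (2.48, adjusted p = 7.54e-05) and cDC2s (1.65, adjusted p = 0.00209), and so was Ctss, at 1281 and 1862 (1.42, adjusted p = 0.000142, and 1.11, adjusted p = 0.00119). The call of Ctss against cDC2s was lost without DC-Xs replicate 2 (0.84, adjusted p = 0.00945, under the 2-fold rule) and in the fit to the compared groups alone (1.11, adjusted p = 0.0728). Ctse was at 5.62 and 5.33 FPKM and called in neither.

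Outside the proteases, Lamp1 was at 470.1 and 836 FPKM in DC-Xs and called against cDC1s (2.90, adjusted p = 1.92e-06) and cDC2s (log2 fold change 1.58, SE 0.23, adjusted p = 0.000398). Ppt1, at 90.8 and 106 FPKM, was far lower than in cDC1s (-4.65, adjusted p = 4.19e-09). Cst3 was lower than in cDC1s (-3.49, adjusted p = 2.33e-06) and not called against cDC2s (0.56). Gusb, at 125 and 157 FPKM, again stood between cDC1s (-1.81) and cDC2s (1.57, adjusted p = 0.000384), and Npc2 and Asah1 were higher than in cDC2s at 1.23 and 1.14. Mcoln1, the calcium channel that releases calcium from lysosomes and acts on TFEB, was at 37.6 and 38.0 FPKM in DC-Xs against 13.5 and 10.8 in cDC1s (1.57, adjusted p = 0.00297). The pump subunit Atp6v1b2 was at 153 and 245 FPKM, higher than in cDC1s (1.28) and cDC2s (1.69, adjusted p = 0.00152), its accessory protein Atp6ap1 was higher than in cDC1s (1.32), and so were Lamp2 (1.27), Tfeb (1.18) and Ifi30 (1.10). The calls of Tfeb and Ifi30 were each lost when any of the 4 compared libraries was left out (adjusted p = 0.0552 to 0.217 and 0.0761 to 0.165). Those of Atp6v1b2 against cDC1s (0.94, adjusted p = 0.082) and Asah1 against cDC2s (0.91, adjusted p = 0.0204) ended without DC-Xs replicate 2, Atp6v1b2 (1.04, adjusted p = 0.0782) and Lamp2 (0.97, adjusted p = 0.0315) without GM-CSF cDC1s replicate 1, and Asah1 without GM-CSF cDC2s replicate 2 (0.94, adjusted p = 0.0252).

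Psap, which encodes the precursor of the saposins that help hydrolases reach lipids, was the most abundant member in DC-Xs, at 6409.5 and 6562 FPKM. It was at 1629 and 1776 in P-I, 704 and 1968 in P-III, 1989.7 and 1506 in P-IV, 1766 and 204 in control cDC1s, 691 and 256 in control cDC2s, 2371 and 1879 in GM-CSF cDC1s and 1006 and 307 in GM-CSF cDC2s. Both DC-X libraries were above all 14 others, while replicates of control cDC1s, both cDC2 groups and P-III disagreed by more than 2-fold, which leaves an SE of 0.85 on each log2 fold change. The gene was called in 1 comparison, against GM-CSF cDC2s (3.54, adjusted p = 0.00977), and this call ended without GM-CSF cDC2s replicate 2 (2.69, adjusted p = 0.0985), DC-Xs replicate 1 (3.56, adjusted p = 0.0511) or DC-Xs replicate 2 (3.52, adjusted p = 0.0522).

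Against P-IV, 0 of 37 members were called in DC-Xs by limma (1.96% of all genes, 0.273% higher and 1.69% lower), and 4 had an unadjusted p under 0.05, 1 higher and 3 lower. The largest differences were those of Psap (log2 fold change 1.91, SE 0.85, adjusted p = 0.347) and Ifi30, at 399.5 and 488 FPKM in DC-Xs against 1082 and 1064 in P-IV (log2 fold change -1.28, SE 0.35, adjusted p = 0.0815). The groups of Ifi30 did not overlap. B cell markers differed along with it: 2 of the 4 tested were lower in DC-Xs than in P-IV (median -1.83), with Cd79a at 0.575 and 0.746 against 11.8 and 14.8 FPKM, and the 5 listed genes summed to 4.21 to 10.6 FPKM in DC-Xs and 33.4 to 38.8 in P-IV. Their part in the lysosomal values was not tested. A p that misses the threshold does not show equal levels, and the study describes the populations as overlapping. Of the 65 pathway genes 10 were higher and 6 lower in DC-Xs than in GM-CSF cDC1s (15.4% and 9.23%, against 8.95% and 7.49% of all genes). Against GM-CSF cDC2s, 9 were higher and 2 lower (13.8% and 3.08%, against 6.78% and 7.96% of all genes). Against P-IV 0 were called, with 5 at an unadjusted p under 0.05. Pla2g15, at 27.6 and 27.8 FPKM in DC-Xs, was called against cDC1s (2.77) and cDC2s (2.21), and so was Ctsf (2.25 and 1.70). Arsb, a sulfatase, was lower than in cDC1s (-2.25), and Slc11a1 higher than in cDC2s (2.74). Red pulp macrophage markers summed to 253 to 302 FPKM in DC-Xs, with Cd5l at 0.280 and 1.37.

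The CD115-high cells were then compared with each other, from classical monocytes (P-I) to P-IV. By limma 0 of 37 members were called between P-III and P-I (3.51% of all genes, 0.979% higher and 2.53% lower, and 7 members at an unadjusted p under 0.05, 1 higher and 6 lower) and 0 between P-IV and P-III (0.591% of all genes, 0.273% higher and 0.318% lower, and 0 members at an unadjusted p under 0.05). Between P-IV and P-I, 2 were lower and 0 higher (7.30% of all genes called, 2.43% higher and 4.86% lower), and 12 had an unadjusted p under 0.05, 11 of them lower. The median of the members was -0.24 against -0.10. The spread behind these tests was shared with the cDC and DC-X groups, whose replicates lay further apart than those of the CD115-high cells. Scaling by median of ratios moved the higher share of all calls from 27.9% to 39.3% for P-III against P-I and from 33.4% to 44.9% for P-IV against P-I.

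The 2 genes lower in P-IV than in monocytes were proteases. Ctsl, a cathepsin that cleaves the invariant chain in thymic epithelium, went from 11.5 and 17.2 FPKM in P-I over 6.25 and 5.85 in P-III to 3.42 and 3.32 in P-IV (log2 fold change -1.79, SE 0.40, adjusted p = 0.0123). Ctsd was at 191 and 279.7 in P-I, 125 and 114 in P-III and 91.7 and 113 in P-IV (log2 fold change -1.17, SE 0.29, adjusted p = 0.0241). In both genes the P-I libraries were above all P-III and P-IV libraries. Both calls ended without P-I replicate 2 (-1.52, adjusted p = 0.147 for Ctsl, and -0.90, adjusted p = 0.267 for Ctsd), P-IV replicate 1 (-1.81, adjusted p = 0.0812, and -1.02, adjusted p = 0.207) or P-IV replicate 2 (-1.77, adjusted p = 0.0897, and -1.32, adjusted p = 0.0788), so that 0 members were then left.

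Other members changed by less than the 2-fold rule. In P-IV Ctsc was at 201 and 219 FPKM, in P-III at 239 and 268 and in P-I at 359 and 353 (-0.76, adjusted p = 0.0337), and Lamp2 in the same order at 121 and 121, 152 and 143 and 206 and 253 (-0.91, adjusted p = 0.0358). Both passed the adjusted p and not the fold. In the order P-I, P-III, P-IV, Ctss was at 1631 and 1886, 2109 and 2081, and 1902 and 1841 FPKM (0.09, adjusted p = 0.929), Tfeb at 64.9 and 72.7, 67.7 and 68.2 and 57.8 and 49.3 (-0.36, adjusted p = 0.783), Ctse at 3.38 and 6.90, 5.72 and 4.76 and 3.85 and 3.56, and Atp6v0d1 at 82.0 and 80.7, 58.5 and 55.6 and 52.3 and 55.4. Among the pathway genes Sort1, a sorting receptor of the Golgi, was at 3.35 and 2.70 FPKM in P-IV against 5.27 and 4.52 in P-III and 9.43 and 13.4 in P-I (-1.61, adjusted p = 0.000607) and Slc11a1 was lower in P-IV as well (-1.84, adjusted p = 0.00708). Sort1 was also the 1 gene of these lists called between P-III and P-I (-1.06, adjusted p = 0.0207), which ended without P-I replicate 2 (-0.83, adjusted p = 0.296), P-III replicate 1 (-1.15, adjusted p = 0.119) or P-III replicate 2 (-0.97, adjusted p = 0.209). The call of Slc11a1 ended without any of the 4 libraries, at an adjusted p of up to 0.059. Of the pathway genes, 2 were higher and 2 lower in P-IV than in P-I (3.08% each, against 2.43% and 4.86% of all genes). Between P-IV and P-III 0 were called, with 5 at an unadjusted p under 0.05. Neutrophil markers were present in P-I alone of these groups, 6 of 7 at an FPKM of 1 or more and summing to 137 to 220 FPKM against 0.256 to 0.569 in P-III and P-IV, where Ly6g, Camp and S100a8 were at 0. Their part in the values of P-I was not tested.

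Last, treated and control mice were compared within each cDC subset. In cDC1s, 3 of 37 members were higher and 2 lower after GM-CSF (14.8% of all genes called, 10.4% higher and 4.41% lower), with a median of 0.25 against 0.14 for all genes. In cDC2s, 1 was higher and 0 lower (5.28% of all genes called, 3.21% higher and 2.06% lower), with a median of 0.28 against 0.02, and at an unadjusted p under 0.05, 9 were higher and 1 lower. The shares of members called were thus near or under the background. The plot of GM-CSF effects shows both subsets.

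**Figure D5:**
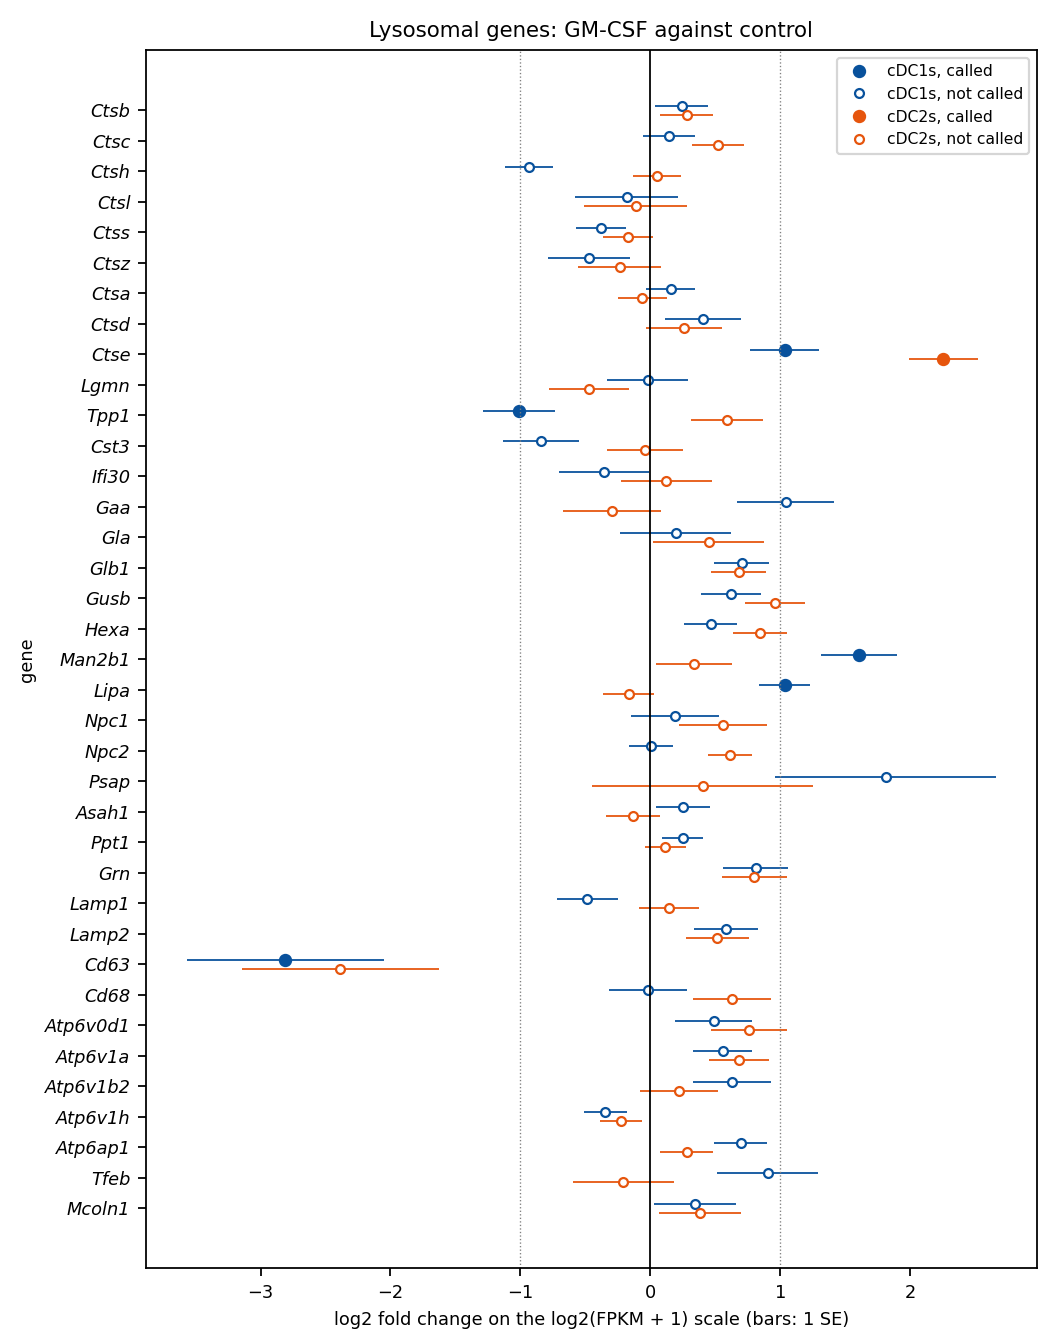
Log2 fold change of the 37 tested lysosomal genes (rows, by role) with GM-CSF against control in cDC1s (blue) and cDC2s (orange) on the log2(FPKM + 1) scale. Filled points were called, open points were not, bars are 1 SE, and dotted lines mark 1 and -1. Ctse at 2.25 is the 1 filled point of cDC2s, and the wide bars of Psap and Cd63 reflect replicates that lie apart.

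Ctse was the only member called higher in both subsets. Others, among them Glb1, Gusb and Grn, also rose in both without overlap and were not called. Ctse went from 0.0513 and 0.362 to 4.81 and 4.61 FPKM in cDC2s (log2 fold change 2.25, SE 0.27, adjusted p = 0.000494) and from 2.24 and 2.64 to 6.25 and 5.81 in cDC1s (log2 fold change 1.03, SE 0.27, adjusted p = 0.0153). The groups did not overlap in either subset, and the call in cDC2s held under all 13 alternatives (adjusted p up to 0.042). That in cDC1s was lost under 9 of 13, among them without either GM-CSF cDC1 library (0.99, adjusted p = 0.0611 without replicate 1, and 1.08, adjusted p = 0.0599 without replicate 2) and without control cDC1s replicate 1 (0.95, adjusted p = 0.0397), and the difference between the subsets did not pass (-1.22, adjusted p = 0.0666). All levels were low.

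In cDC1s, Man2b1, lysosomal alpha-mannosidase, rose from 212 and 109 to 382 and 564 FPKM (log2 fold change 1.61, SE 0.30, adjusted p = 0.0037), and Lipa, the acid lipase that frees cholesterol from its esters, from 62.4 and 51.8 to 98.9 and 139.6 (1.03, adjusted p = 0.00443). Tpp1 fell from 14.2 and 6.82 to 3.80 and 5.14 FPKM (-1.01, adjusted p = 0.0202). Groups did not overlap for these 3 genes. Cd63, a tetraspanin of late endosomes and exosomes, fell from 35.2 and 64.5 to 2.34 and 13.4 FPKM (log2 fold change -2.81, SE 0.76, adjusted p = 0.0188), and in cDC2s it was at 32.9 and 23.5 in control and 5.02 and 4.06 in treated mice, which did not pass (-2.38, adjusted p = 0.0845). Cst3 was at 16053 and 22050.3 and 8935 and 12339 FPKM in cDC1s (-0.84, adjusted p = 0.0486, under the 2-fold rule). Ctss was at -0.38 in cDC1s and -0.17 in cDC2s, Tfeb at 0.90 and -0.21 and Atp6v0d1 at 0.49 and 0.76, and none of these was called.

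The calls in cDC1s depended on the libraries and the fit. Without control cDC1s replicate 1 the count was 11 in place of 5, and it was 3 without either GM-CSF cDC1s replicate 2 or control cDC1s replicate 2. Library weights and the fit to these 4 libraries alone left 0, and in the second the whole table had 0 calls. Tpp1 was lost without the first library of GM-CSF cDC1s (-0.83, adjusted p = 0.111) or of control cDC1s (-0.53, adjusted p = 0.0965), Cd63 without the first library of GM-CSF cDC1s (-1.75, adjusted p = 0.148) or the second of control cDC1s (-2.38, adjusted p = 0.117), and Lipa without the second library of GM-CSF cDC1s (0.79, adjusted p = 0.0458) or of control cDC1s (0.90, adjusted p = 0.0257). Fold changes in cDC1s rose with transcript length (Spearman rho 0.458 across 11204 genes, which are not replicates), and a correction for it left 2 members, with Lipa at 0.64. Median-of-ratios scaling moved the higher share of all calls from 70.2% to 51.2% and the median of all genes from 0.14 to 0.03.

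Of the pathway genes outside the 39, 15 of 65 were higher in treated cDC1s (23.1%, against 10.4% of all genes) and 1 lower (1.54%, against 4.41%). All calls of this comparison lean to the higher side in a way that the scaling changes, as given above, and the counts of the list were not tested against other genes. Of 28 other hydrolases 10 were higher and 0 lower. Manba, a beta-mannosidase, rose from 5.03 and 2.60 to 11.3 and 15.5 FPKM (1.61, adjusted p = 0.00215), Ids, a sulfatase, from 6.24 and 3.36 to 12.7 and 19.6 (1.58, adjusted p = 0.00515) and the pump subunit Atp6v0a2 from 41.1 and 17.0 to 64.0 and 112 (1.64, adjusted p = 0.00701). Control cDC1s replicate 2 had the lowest value of the 4 in each. All 3 calls ended in the fit to the compared groups alone (adjusted p = 0.151), and that of Atp6v0a2 without GM-CSF cDC1s replicate 2 (1.24, adjusted p = 0.0675). In cDC2s 1 of 65 was higher (1.54%, against 3.21% of all genes) and 0 lower (against 2.06% of all genes). At an unadjusted p under 0.05, 9 pathway genes were higher and 4 lower in cDC2s.

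The difference of the GM-CSF effects, cDC1s minus cDC2s, was tested directly and passed for 2 of 37 members, 1 higher and 1 lower (6.84% of all genes, 4.24% higher and 2.59% lower). Lipa differed by 1.20 and Tpp1 by -1.59, in opposite directions. Of the pathway genes 7 of 65 passed, in each case with the GM-CSF effect, not the level, higher in cDC1s than in cDC2s. The largest differences were those of Arsa, a sulfatase (1.74, adjusted p = 0.0386), Ids (1.68, adjusted p = 0.041) and Cd164, a sialomucin (1.49, adjusted p = 0.0262). These calls were lost under 11, 10 and 8 of 17 alternatives. The count of members was 8 without control cDC1s replicate 1, 1 without any of 5 other libraries (replicate 2 of control cDC1s, either of control cDC2s, replicate 1 of GM-CSF cDC1s and replicate 2 of GM-CSF cDC2s), and 0 without GM-CSF cDC1s replicate 2 or GM-CSF cDC2s replicate 1, and the difference followed transcript length (Spearman rho 0.480 across 11204 genes).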

How the data were processed

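Sorted spleen cells of 8 groups, 2 libraries each, were measured by RNA-seq. The authors made libraries with a SMARTer low-input kit, sequenced them on an Illumina NovaSeq instrument and, by their processing notes, used bcl2fastq 1.8.4, HISAT2 2.1.0 and StringTie 1.3.4d with build mm10. The deposited values are FPKM by the authors, 1 table with no counts, so a count model was not used. Groups and replicate numbers came from the sample labels. Use of strand in counting was not given in the sources used here, so overlapping genes cannot be told apart.

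The 11335 genes that reached 1 FPKM in 2 libraries entered a limma fit (version 3.58.1, R 4.3.3) on log2(FPKM + 1) with a variance trend. It had a mean per group, all 16 libraries in 1 fit (8 residual degrees of freedom) and Benjamini-Hochberg adjustment over all genes. The fit was tested on simulated data with the same spread in every group, which cannot test it under the unequal spreads of these groups. A gene was called at an adjusted p under 0.05 and at least 2-fold, the fold rule of the study. Adjusted p-values come from limma throughout, and n is 2 libraries a group. The members, pathway lists, markers and tests were chosen with earlier results of these data known. All members could be named. Values in every library were given for up to 5 called members per comparison with the largest change and for Ctss, Ctsk, Ctse, Cst3, Atp6v0d1, Atp6v0d2 and Tfeb, and up to 3 called pathway genes per comparison were named. Some results of the pathway lists are not reported here.

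Alternatives were a pseudocount of 0.1, no filter, a filter at an FPKM of 5, quantile normalization, median-of-ratios scaling, library weights, the compared groups alone, a length correction, a replicate block and each library left out. Depth was sought by a scan for the value at which most low values were whole multiples of 1 fragment. At the best depth, 10 libraries had at least 30% of values up to 4 fragments within 0.05 of a whole number. Values without steps give 10% at a depth fixed beforehand and can give more at the best depth of a scan. Lengths came from GENCODE M21 (11204 of the genes tested, 38 of 39 members, Ifi30 without one), and coordinates and promoters from RefSeq (GRCm38.p6, the assembly of mm10). The 737 genes of a median above 100 FPKM included 0 with a listed 0, and 0 pairs of libraries held the same values. Python 3.11.15 was used for summaries and plots.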

Additional observations from a re-analysis of the deposited data

Results flagged for a closer look

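The effect of GM-CSF on 2 members differed between cDC1s and cDC2s by the test of the difference itself. Tpp1, the tripeptidyl peptidase, went from 14.2 and 6.82 to 3.80 and 5.14 FPKM in cDC1s (-1.01). In cDC2s it went from 25.2 and 29.7 to 38.2 and 45.2 (0.59), a difference of -1.59 (adjusted p = 0.0339, limma). Both treated libraries were under both control libraries in cDC1s and above both in cDC2s. The call was lost under 7 of 17 alternatives, with an adjusted p of up to 0.273, 5 of them leaving out 1 library: control cDC2s replicate 1 (-1.48, adjusted p = 0.0848), GM-CSF cDC1s replicate 1 (-1.42, adjusted p = 0.0845) or 2 (-1.77, adjusted p = 0.0512), and GM-CSF cDC2s replicate 1 (-1.71, adjusted p = 0.054) or 2 (-1.48, adjusted p = 0.0929).

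Lipa, the acid lipase, went from 62.4 and 51.8 to 98.9 and 139.6 FPKM in cDC1s (1.03) and from 78.0 and 96.4 to 69.1 and 85.8 in cDC2s (-0.17), a difference of 1.20 (adjusted p = 0.0293, limma). The cDC2 libraries of treated and control mice overlapped. This call was lost under 8 of 17 alternatives, 4 of them leaving out 1 library: control cDC1s replicate 2 (1.07, adjusted p = 0.0545), control cDC2s replicate 2 (1.05, adjusted p = 0.0629), GM-CSF cDC1s replicate 2 (0.96, adjusted p = 0.0854) or GM-CSF cDC2s replicate 1 (1.05, adjusted p = 0.0704). The length correction also ended it (0.88, adjusted p = 0.12).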

How the results depend on the processing

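Of 85 calls of members over 13 comparisons, 0 turned direction under any alternative run, and the stricter filter and the replicate block kept all 85. Library weights lost 10, the compared groups alone 10, quantile normalization 7, the length correction 6 of 82, median-of-ratios scaling 5, no filter 4 and the pseudocount of 0.1 lost 2. Leaving out 1 library lost 62 of 348.

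Counts that moved by over 1.5 times were these. For P-III against P-I, 0 became 2 with library weights and 2 with the compared groups alone. For P-IV against P-I, 2 became 1 with no filter and 0 to 2 with a library left out. For DC-Xs against GM-CSF cDC2s, 8 became 13 with median-of-ratios scaling, 13 with the length correction and 5 to 12 with a library left out. For DC-Xs against P-IV, 0 became 1 with library weights, 2 with the compared groups alone and 1 with the replicate block. For GM-CSF in cDC1s, 5 became 0 with library weights, 0 with the compared groups alone, 2 with the length correction and 3 to 11 with a library left out. For GM-CSF in cDC2s, 1 became 2 with the compared groups alone, 2 with the replicate block and 1 to 2 with a library left out. For the difference of the GM-CSF effects, 2 became 1 with median-of-ratios scaling, 0 with library weights, 0 with the compared groups alone, 1 with the length correction and 0 to 8 with a library left out. The cause was not tested, apart from fewer samples where libraries were left out. Replicate numbers were shared between groups, but with 2 pairs a comparison they were not taken as pairs. Differences between replicates correlated across genes at -0.014 to 0.671 for the groups compared. With 2 libraries a group and unknown depth in 6 libraries, differences under 2-fold were not called.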

Other observations

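The 28 hydrolases of the pathway list, taken as a sum, were ordered differently from the 39 members. Their summed FPKM was 4075 to 4211 in P-IV, 3401 to 3615 in P-III, 3097 to 3919 in GM-CSF cDC1s, 3083 to 3624 in DC-Xs, 2541 to 2666 in control cDC1s, 2115 to 2397 in P-I, 2078 to 2218 in GM-CSF cDC2s and 1706 to 1964 in control cDC2s. Both P-IV libraries were above all others, while GM-CSF cDC1s, P-III and DC-Xs overlapped. This order rests on Gm2a, the activator of ganglioside breakdown, which was at 2601 and 2504 FPKM in P-IV and 1267 and 1716 in GM-CSF cDC1s. Without it the other 27 genes summed to 1830.1 to 2203 FPKM in GM-CSF cDC1s, above the 1571 to 1610.2 of P-IV. The 12 other pump subunits summed to 1174 to 1291 FPKM in GM-CSF cDC2s and 1895 to 1952 in P-I, with control cDC1s at 1818 to 2203. These sums weight abundant genes most and were not tested.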
